A study of Mus musculus with 18 samples.

Results

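Cholesterol genes were followed in mouse hippocampus and cerebral cortex that had been vitrified, snap-frozen or taken fresh. The set holds 30 genes listed by symbol: 18 enzymes of cholesterol synthesis, 5 genes of the sterol-sensing regulatory system, and 7 genes of sterol export, storage and trafficking. Members were matched by symbol. The set was chosen with earlier results of these data known, so its counts beside the shares of all genes are descriptive only. All 30 were found among the 18389 genes of the hippocampus table and the 18235 genes of the cortex table. All 30 also passed the filter on low counts in every fit. No lipoprotein receptor is among them, so uptake is represented only by Npc1 and Npc2, which move sterol out of endosomes after uptake.

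Poly(A) RNA was sequenced from 18 libraries, 3 for each of 6 groups: vitrified, snap-frozen and fresh hippocampus, and vitrified, snap-frozen and fresh cortex. Vitrified tissue was loaded with ethylene glycol (28 wt%), DMSO (22.3 wt%) and sucrose in PBS through 25%, 50%, 75% and 100% solution for 5 min each. Liquid nitrogen followed, then 4 days of storage at -80 °C and a water bath at 37 °C, after which the cryoprotectant was washed out in steps before lysis. Snap-frozen tissue went straight into liquid nitrogen, with its storage and thawing not given, and fresh tissue was left untreated. Vitrified tissue therefore differed from fresh tissue in cryoprotectant exposure, handling time, cooling, storage and rewarming at once, and these cannot be told apart. The labels give no strain, age, sex or animal, so p-values rest on how far the 3 libraries of a group lay apart, which may reflect technical variation alone. A gene was called when its adjusted p, from edgeR's quasi-likelihood test with Benjamini-Hochberg adjustment over all genes tested, was under 0.05.

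Library totals lay between 15725356 and 17480302 counts, so that 3 counts were worth 0.172 to 0.191 CPM (counts scaled to one common library size). In fresh tissue, 8 of 10 hippocampal region markers were called higher in hippocampus than in cortex and 8 of 10 cortical ones lower, as the labels have it. The snap-frozen hippocampus libraries stood apart. Their summed hippocampal markers were 514 to 534 CPM in snap-frozen hippocampus, against 963 to 966 CPM in fresh hippocampus, with 9 of 10 markers lower. Otherwise high there, and singled out after their values were seen, were the glutamate transporter gene Slc17a6 (log2 difference 4.50 ± 0.05, SE) and the transcription factor genes Foxp2 (5.49 ± 0.12) and Otx2 (5.33 ± 0.20). Snap-frozen cortex had 7 of 9 hippocampal markers higher than fresh cortex, and its replicate 3 stood apart from the other two (chi-square per degree of freedom 3.77 and 3.47, against 1.22 to 1.59 for every other pair of replicates). The part that such differences in the tissue taken play in the snap-frozen results was not tested.

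Cholesterol cannot cross the blood-brain barrier to any useful extent, and the brain makes its own. Acetyl-CoA is built into mevalonate, then isoprenoids, then squalene, which is closed to lanosterol and trimmed to cholesterol. SREBP transcription factors, encoded by Srebf1 and Srebf2, switch these enzymes on when sterols fall: SCAP carries them from the endoplasmic reticulum to the Golgi for cleavage, and INSIG proteins hold SCAP back when sterols are plentiful. Liver X receptors act in the opposite sense and raise exporters such as ABCA1 and ABCG1. Oligodendrocytes use cholesterol for myelin, astrocytes export it to neurons, and neurons clear it by hydroxylation through CYP46A1.

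The 250 bases before the start of transcription are shown for the 6 members with the smallest adjusted p in vitrified against fresh hippocampus. They are from RefSeq on GRCm38.p6, 5′ to 3′ on the gene's strand. Capitals mark a sterol regulatory element (TCACNCCAC) or the box bound by the factor NF-Y (CCAAT), searched on both strands, so that ATTGG is the NF-Y box on the other strand.
Hmgcs1 (chr13:119690101-119690350, plus strand): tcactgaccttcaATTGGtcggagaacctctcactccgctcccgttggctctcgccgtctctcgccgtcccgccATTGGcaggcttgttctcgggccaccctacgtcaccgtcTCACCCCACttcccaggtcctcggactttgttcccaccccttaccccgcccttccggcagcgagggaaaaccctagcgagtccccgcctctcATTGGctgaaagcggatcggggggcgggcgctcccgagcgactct
Idi1 (chr13:8885356-8885605, plus strand): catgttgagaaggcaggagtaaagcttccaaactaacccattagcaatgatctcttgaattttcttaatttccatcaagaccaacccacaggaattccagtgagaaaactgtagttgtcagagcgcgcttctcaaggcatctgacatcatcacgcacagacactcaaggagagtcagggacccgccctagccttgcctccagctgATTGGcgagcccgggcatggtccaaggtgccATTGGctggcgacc
Cyp51 (chr5:4104698-4104947, minus strand): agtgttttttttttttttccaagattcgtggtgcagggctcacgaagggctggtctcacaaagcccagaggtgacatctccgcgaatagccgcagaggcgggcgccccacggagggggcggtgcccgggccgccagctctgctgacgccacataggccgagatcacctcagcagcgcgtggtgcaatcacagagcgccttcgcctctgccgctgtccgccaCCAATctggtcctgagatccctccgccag
Sc5d (chr9:42264301-42264550, minus strand): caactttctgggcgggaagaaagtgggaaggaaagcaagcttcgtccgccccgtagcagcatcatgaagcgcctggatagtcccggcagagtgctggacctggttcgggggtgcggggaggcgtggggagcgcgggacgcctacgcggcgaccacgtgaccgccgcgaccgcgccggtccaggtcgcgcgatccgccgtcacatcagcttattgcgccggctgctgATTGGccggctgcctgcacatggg
Npc2 (chr12:84773113-84773362, minus strand): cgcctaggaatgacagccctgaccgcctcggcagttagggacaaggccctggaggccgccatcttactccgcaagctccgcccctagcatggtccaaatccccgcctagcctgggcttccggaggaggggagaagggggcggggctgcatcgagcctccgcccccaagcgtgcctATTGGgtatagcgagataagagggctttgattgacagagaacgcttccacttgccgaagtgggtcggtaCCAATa
Abca1 (chr4:53159896-53160145, minus strand): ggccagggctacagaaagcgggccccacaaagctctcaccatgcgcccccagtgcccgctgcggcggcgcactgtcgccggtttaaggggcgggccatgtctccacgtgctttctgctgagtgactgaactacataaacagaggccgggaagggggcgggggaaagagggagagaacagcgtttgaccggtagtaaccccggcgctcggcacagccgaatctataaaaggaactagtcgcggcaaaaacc

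Promoter windows were matched for 24 of the 30 members. Hmgcs1, the cytosolic HMG-CoA synthase, held the sterol regulatory element 137 bases before its start, and it was the only one of the 24 members (4.17%) with that spelling, against 1.27% of the 14312 genes of the tables that have a window. The CCAAT box was found in 21 of 24 members (87.5%), against 39.7% of those 14312 genes. It occurred in 14 of 15 synthesis genes with a window, in 4 of 5 regulatory genes and in 3 of 4 export genes. Of the 6 promoters shown, Abca1 held neither motif. Pmvk, Mvd, Tm7sf2, Ebp and Dhcr7, which were not called in vitrified against fresh hippocampus, also held the CCAAT box. A match describes the letters in this window and says nothing of binding or of the changes reported here.

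In fresh tissue the members spanned a wide range of levels per length, here CPM per kilobase of exon. Hmgcs1 had the highest level in fresh hippocampus, 58.9 ± 0.595 CPM per kb (SD, n = 3). Cyp46a1 followed with 44.0 ± 0.827 and Srebf2 with 30.9 ± 0.341 CPM per kb, each clear of its neighbours. Fdft1, squalene synthase, came next at 20.1 ± 0.398 CPM per kb. From Sc5d (17.6 ± 0.320) through Pmvk, Idi1, Insig1 and Insig2 to Cyp51 (16.3 ± 0.886 CPM per kb) each member overlapped the next, so their order is not resolved. At the low end stood Lss (3.08 ± 0.0606), Tm7sf2 (2.68 ± 0.191) and Soat1 (2.16 ± 0.209 CPM per kb). In fresh cortex Hmgcs1 (73.1 ± 0.715) and Cyp46a1 (72.9 ± 1.52 CPM per kb) overlapped at the top, and Soat1 was again lowest at 1.97 ± 0.0435 CPM per kb. Dividing by the longest transcript instead of all exons moved 7 members by over 3 places in hippocampus, by up to 9 places for Sc5d, and 8 members in cortex.

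**Figure D1:**
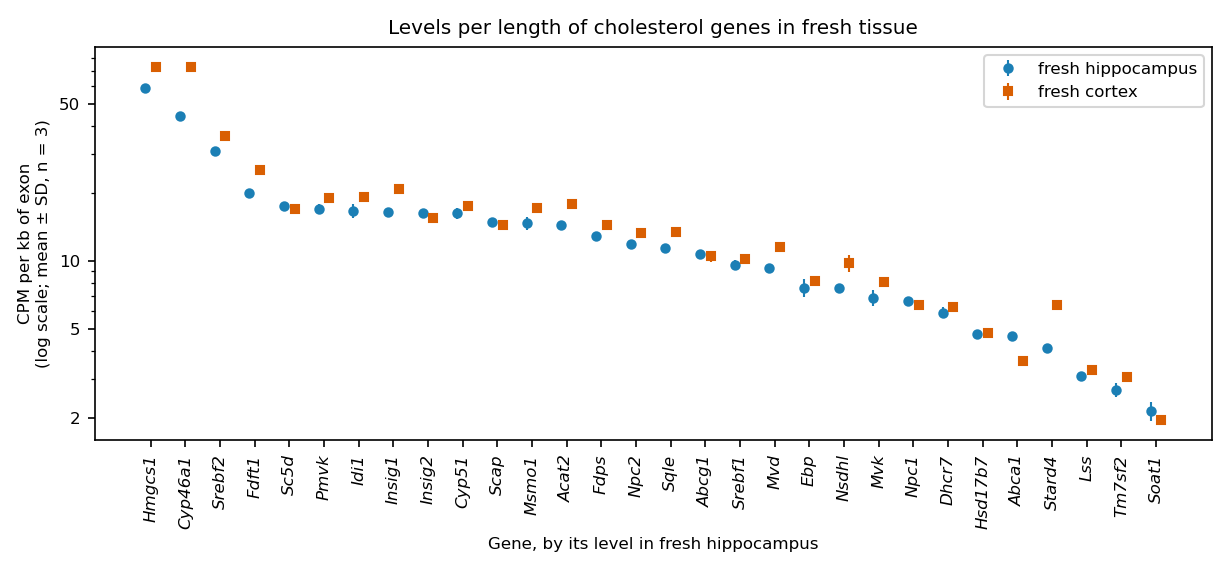
Levels per length in fresh hippocampus and fresh cortex, in CPM per kilobase of exon on a log axis, for all 30 members (points, mean; bars, SD; n = 3). Hmgcs1 and Cyp46a1 lie at the top in both tissues and Soat1 at the bottom.

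Fresh hippocampus held less of most synthesis transcripts than fresh cortex. Of the 18 synthesis genes, 12 were called lower in hippocampus and none higher, with a median log2 difference of -0.19 against 0.01 over all genes. Over all genes tested, 27.8% were called lower and 28.5% higher. Nsdhl, a sterol dehydrogenase, differed by -0.36 ± 0.06 (SE, adjusted p = 3.8e-06), Fdft1 by -0.33 ± 0.04 (adjusted p = 4.2e-10) and Hmgcs1 by -0.31 ± 0.03 (adjusted p = 2.6e-13). Among regulators, Insig1 (-0.35 ± 0.05, adjusted p = 9.7e-08) and Srebf2 (-0.21 ± 0.03, adjusted p = 4.4e-08) were lower, whereas Srebf1, Scap and Insig2 did not pass. The export class was split. Cyp46a1 was lower in hippocampus by the widest margin of the 30 (-0.73 ± 0.03, adjusted p = 1.6e-23), as was Stard4, a cytosolic sterol carrier (-0.64 ± 0.06, adjusted p = 8.6e-13), and Npc2 (-0.16 ± 0.04, adjusted p = 0.00111). Abca1, the lipid exporter, was the only member called higher in hippocampus (0.37 ± 0.05, adjusted p = 1.5e-08). The calls of Cyp51, Mvk and Pmvk did not hold throughout: without hippocampus fresh replicate 3 Cyp51 stood at -0.06 (adjusted p = 0.215), without hippocampus fresh replicate 2 Mvk at -0.17 (adjusted p = 0.0525), and 5 of 18 omissions ended the call of Pmvk (adjusted p 0.0549 to 0.13). Cell markers differed between the tissues too, and their part was not tested. All 12 endothelial markers were lower in fresh hippocampus (median -0.83), as were 9 of 10 meningeal ones (median -1.90). So were 7 of 9 choroid plexus ones (median -2.06), 7 of 8 inhibitory neuron ones (median -0.58) and 8 of 16 astrocyte ones. Of the oligodendrocyte markers, 9 of 16 were higher. Tissue and deposited table coincide, so a difference between the tables cannot be told apart from the tissue.

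Vitrified hippocampus had less of the sterol synthesis transcripts than fresh hippocampus. Of 18 synthesis genes, 10 fell, none rose, and all 18 fitted values were below zero, with a median log2 change of -0.19 against 0.01 over all 14528 genes. Across those genes 25.3% were called lower and 23.8% higher. The steepest changes lay at the isomerase step (Idi1), at lanosterol demethylation (Cyp51) and at the late desaturase (Sc5d). Groups did not overlap, with every vitrified library lower, for 12 of the 18, where 3975 of all 14528 genes showed this. Over the 30 members the libraries did not overlap for 23 (20 lower and 3 higher), where 54.6% of all genes showed no overlap in either direction. The summed synthesis transcripts came to 824 to 833 CPM in vitrified hippocampus and 1019.5 to 1033 CPM in fresh hippocampus.

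Idi1, which interconverts the isoprenoid building blocks, had 36.1, 37.0 and 38.0 CPM in vitrified hippocampus, against 56.3, 55.7 and 63.2 CPM in fresh hippocampus. All 3 vitrified libraries lay below all 3 fresh ones, a log2 change of -0.66 ± 0.05 (SE, adjusted p = 4.0e-16). Deposited values of Idi1 and of Acat2, the cytosolic thiolase, were often not whole numbers, as when reads are divided among similar loci, and their levels are uncertain.
Cyp51, the lanosterol demethylase, had 50.2, 47.4 and 49.2 CPM in vitrified hippocampus, against 75.0, 72.8 and 67.5 CPM in fresh hippocampus. The groups did not overlap, and the log2 change was -0.55 ± 0.04 (adjusted p = 2.7e-15).
Sc5d, a sterol desaturase, had 61.8, 62.8 and 61.0 CPM in vitrified hippocampus and 86.9, 83.9 and 86.0 CPM in fresh hippocampus. Again the groups were apart, with a change of -0.47 ± 0.04 (adjusted p = 7.5e-15).
Hmgcs1 had 194, 208 and 199.7 CPM in vitrified hippocampus, against 267, 272 and 273 CPM in fresh hippocampus. These values too were separate, and the change was -0.43 ± 0.03 (adjusted p = 7.1e-19), or -25.8%.
Msmo1, the methylsterol oxidase that follows Cyp51, had 66.9, 69.7 and 67.4 CPM in vitrified hippocampus and 93.3, 83.5 and 95.1 CPM in fresh hippocampus, a change of -0.41 ± 0.04 (adjusted p = 1.4e-11) with no overlap.

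Smaller declines were called for mevalonate kinase Mvk (-0.32 ± 0.08, adjusted p = 4.2e-04), squalene epoxidase Sqle (-0.24 ± 0.04, adjusted p = 4.1e-06), lanosterol synthase Lss (-0.19 ± 0.05, adjusted p = 0.00297), the ketoreductase Hsd17b7 (-0.20 ± 0.06, adjusted p = 0.00793) and Nsdhl (-0.19 ± 0.07, adjusted p = 0.0155). The last pair rested on single libraries: without vitrified replicate 1 the adjusted p was 0.078 for Hsd17b7 and 0.106 for Nsdhl, and without fresh replicate 3 it was 0.0525 for Nsdhl. The 8 synthesis genes that did not pass were Acat2, Pmvk, Mvd, Fdps, Fdft1, Tm7sf2, Ebp and Dhcr7, with log2 values between -0.17 (Tm7sf2) and -0.01 (Dhcr7). They include Pmvk and Mvd before the Idi1 step, Fdps and Fdft1 after it, and the terminal reductase Dhcr7. Dhcr7 had 31.8, 33.8 and 36.7 CPM in vitrified hippocampus and 32.3, 36.2 and 34.3 CPM in fresh hippocampus, which overlap.

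Among the 5 regulators of vitrified hippocampus, 3 fell and 1 rose, where 25.3% of all genes were called lower and 23.8% higher. Srebf1, the SREBP gene tied most closely to fatty acid synthesis, had 35.8, 37.9 and 40.3 CPM in vitrified hippocampus, against 53.6, 57.1 and 52.4 CPM in fresh hippocampus. The groups did not overlap (-0.52 ± 0.05, adjusted p = 9.2e-13). Srebf2, the SREBP gene tied most closely to sterol synthesis, had 189, 181 and 184 CPM in vitrified hippocampus and 221, 225 and 221 CPM in fresh hippocampus. It also fell without overlap (-0.26 ± 0.03, adjusted p = 3.4e-12). Insig1, itself an SREBP target, fell by 0.18 on the log2 scale (SE 0.05, adjusted p = 8.7e-04), with 47.3, 43.1 and 44.5 CPM in vitrified and 51.4, 48.4 and 53.3 CPM in fresh hippocampus. Insig2 rose slightly (0.11 ± 0.04, adjusted p = 0.0304), a call lost without fresh replicate 2 (0.08, adjusted p = 0.141), fresh replicate 3 or vitrified replicate 2. Scap, the escort protein, had a value of 0.05 ± 0.03 (adjusted p = 0.287) and overlapping groups.

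Every export, storage and trafficking gene was called in vitrified hippocampus, 5 lower and 2 higher. Over all genes tested, 25.3% were called lower and 23.8% higher in this comparison. Soat1, which esterifies cholesterol for storage, had 12, 11.2 and 11.9 CPM in vitrified hippocampus, against 18.9, 21.4 and 23.0 CPM in fresh hippocampus. With a log2 change of -0.85 ± 0.08 (adjusted p = 7.3e-13), or -44.6%, it was the lowest of the 30 members. Abca1 had 29.0, 29.4 and 29.4 CPM in vitrified hippocampus and 48.9, 47.5 and 48.1 CPM in fresh hippocampus, with no overlap (-0.72 ± 0.05, adjusted p = 3.5e-17). The endosomal pair moved together: Npc2, the soluble carrier, changed by -0.52 ± 0.04 (adjusted p = 3.2e-14) and Npc1, its membrane partner, by -0.39 ± 0.04 (adjusted p = 3.6e-11). Stard4 fell by 0.22 (SE 0.07, adjusted p = 0.00670). Cyp46a1, by contrast, had 165, 167 and 166 CPM in vitrified hippocampus, against 147, 142 and 145 CPM in fresh hippocampus. This neuronal hydroxylase rose with no overlap (0.20 ± 0.03, adjusted p = 2.0e-07), as did the exporter Abcg1 (0.15 ± 0.04, adjusted p = 7.7e-04).

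Glial markers moved in the same libraries. All 16 astrocyte markers were lower in vitrified than in fresh hippocampus, with a median log2 change of -1.44 and summed levels of 2846 to 2879.7 CPM in vitrified and 7894 to 7992 CPM in fresh hippocampus. Of 16 oligodendrocyte markers 12 were lower and 2 higher (median -0.28), and their sums were 6766 to 6786 CPM in vitrified and 6956 to 7164 CPM in fresh hippocampus. Microglial markers were lower for 10 of 12 (375 to 387 CPM in vitrified, 595 to 604 CPM in fresh hippocampus), whereas all 12 endothelial ones were higher (402 to 415 CPM in vitrified, 232 to 236 CPM in fresh hippocampus). Their part in the fall of the sterol genes was not tested. In whole tissue, fewer cells of a type and less RNA per cell cannot be told apart. With the snap-frozen hippocampus libraries left out of the fit, the call stood at 18 members lower and 3 higher, the same counts.

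**Figure D2:**
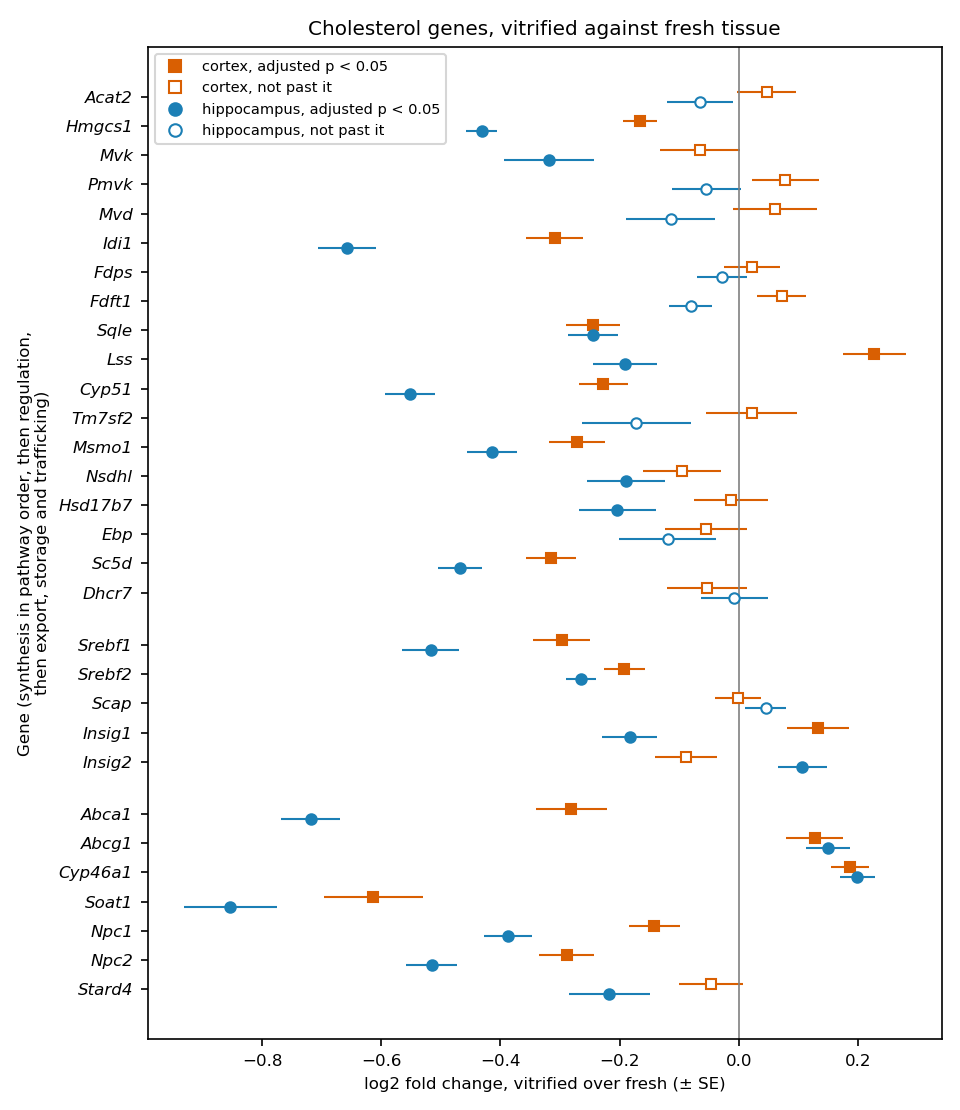
Log2 change in vitrified against fresh tissue for all 30 members, in cortex and in hippocampus (points, edgeR estimate; bars, SE; filled, adjusted p under 0.05; open, not past it). In hippocampus 18 members are called lower and 3 higher, and in cortex 12 lower and 4 higher, with Soat1 the lowest in both tissues.

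In vitrified cortex 6 enzymes of the pathway were lower than in fresh cortex, while 11 of 18 did not pass. Of 18 synthesis genes 6 fell and 1 rose, with a median log2 change of -0.05 against 0.03 over all 14470 genes. Across these genes 17.3% were called lower and 23.2% higher. The 6 were Sc5d, Idi1, Msmo1, Sqle, Cyp51 and Hmgcs1, and each of them was also called lower in hippocampus. Libraries did not overlap for 18 of the 30 members (13 lower and 5 higher), where 52.5% of all genes showed no overlap in either direction.

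Sc5d had 64.5, 66.0 and 67.4 CPM in vitrified cortex, against 84.4, 78.9 and 82.9 CPM in fresh cortex, a log2 change of -0.32 ± 0.04 (adjusted p = 3.5e-07). Idi1 had 51.8, 56.0 and 53.1 CPM in vitrified cortex and 64.5, 66.5 and 68.3 CPM in fresh cortex (-0.31 ± 0.05, adjusted p = 4.4e-06). Neither gene had groups that overlapped. Hmgcs1 had 289.9, 296 and 302 CPM in vitrified cortex, against 333, 334 and 328 CPM in fresh cortex (-0.17 ± 0.03, adjusted p = 2.6e-05). Msmo1 (-0.27 ± 0.05), Sqle (-0.24 ± 0.05) and Cyp51 (-0.23 ± 0.04) lay between them, with adjusted p of 2.9e-05, 6.7e-05 and 5.5e-05. Lss went the other way. It had 42.4, 39.8 and 40.6 CPM in vitrified cortex and 34.1, 35.3 and 35.5 CPM in fresh cortex, a rise without overlap (0.23 ± 0.05, adjusted p = 8.7e-04).

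Srebf1 fell in vitrified cortex too (-0.30 ± 0.05, adjusted p = 8.2e-06), with 45.2, 45.7 and 47.5 CPM in vitrified and 57.6, 58.0 and 54.4 CPM in fresh cortex. Srebf2 fell by 0.19 (SE 0.03, adjusted p = 3.3e-05). Insig1 was called higher (0.13 ± 0.05, adjusted p = 0.0391), but leaving out either fresh replicate 1 or 2 or any of the 3 vitrified libraries ended the call, with adjusted p between 0.0562 and 0.155. Scap (-0.00 ± 0.04) and Insig2 (-0.09 ± 0.05) did not pass.
Of the export genes, Soat1 again had the largest change, with 12, 12.8 and 12.5 CPM in vitrified cortex, against 18.7, 18.8 and 19.5 CPM in fresh cortex (-0.61 ± 0.08, adjusted p = 5.7e-07). Npc2 (-0.29 ± 0.05, adjusted p = 7.7e-06), Abca1 (-0.28 ± 0.06, adjusted p = 3.1e-04) and Npc1 (-0.14 ± 0.04, adjusted p = 0.00868) fell as well, the last not without vitrified replicate 2 (-0.12, adjusted p = 0.0585). Cyp46a1 had 270.3, 265 and 273 CPM in vitrified cortex and 238, 241 and 231 CPM in fresh cortex. It rose (0.19 ± 0.03, adjusted p = 2.1e-05), while Abcg1 (0.13 ± 0.05, adjusted p = 0.0314) lost its call without fresh replicate 2 (0.08, adjusted p = 0.248), vitrified replicate 1 or vitrified replicate 3. With factors from median ratios (RLE) in place of TMM, 2 members were higher and 12 lower in vitrified cortex.

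The fits of cortex and hippocampus share no library. All 12 members called lower in vitrified cortex were among the 18 called lower in vitrified hippocampus (100% of the cortical calls, 66.7% of the hippocampal ones): Hmgcs1, Idi1, Sqle, Cyp51, Msmo1, Sc5d, Srebf1, Srebf2, Abca1, Soat1, Npc1 and Npc2. Over all genes, 76.3% of the cortical and 52.0% of the hippocampal calls of a fall were shared. Cyp46a1 and Abcg1 were called higher in both, which is 50% of the 4 cortical and 66.7% of the 3 hippocampal calls, against 65.9% and 63.8% over all genes. Lss and Insig1 were called in opposite directions. Astrocyte markers were lower in vitrified cortex as well, 16 of 16, with a median of -0.85 and sums of 4574 to 4675 CPM in vitrified and 8315 to 8426 CPM in fresh cortex. Oligodendrocyte markers there were 6 higher and 3 lower of 16 (7223 to 7282 CPM in vitrified, 6446 to 6615 CPM in fresh cortex). Choroid plexus markers were lower for 9 of 9, with sums of 8.97 to 10.3 CPM in vitrified and 321 to 414 CPM in fresh cortex, and meningeal ones for 9 of 10. Their part in these results was not tested.

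**Figure D3:**
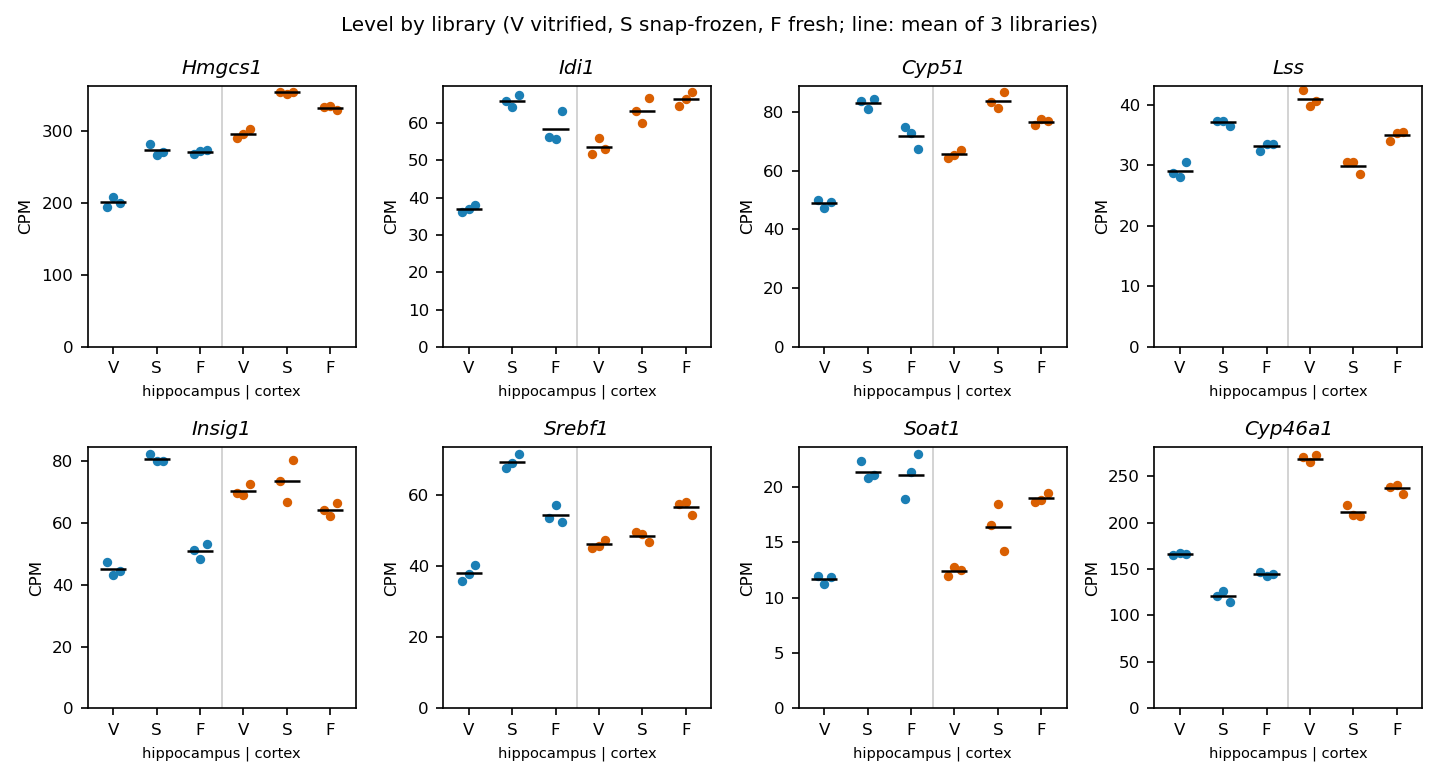
CPM of 8 members in each of the 18 libraries (points; lines, group mean), with vitrified, snap-frozen and fresh tissue from left to right in hippocampus and in cortex. Idi1, Cyp51 and Soat1 lie lowest in the vitrified libraries of both tissues, Insig1 in snap-frozen hippocampus lies above the other hippocampus groups, and Cyp46a1 is highest in the vitrified libraries.

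Direct tests of the tissue difference were made in one fit over all 18 libraries. The change in vitrified against fresh tissue, cortex minus hippocampus, was called for 9 members, 8 higher and 1 lower, where 7.01% and 5.89% of the 14827 genes were called. Synthesis genes Lss (0.38 ± 0.07, adjusted p = 1.5e-04), Idi1 (0.31 ± 0.07, adjusted p = 0.00128), Cyp51 (0.29 ± 0.06, adjusted p = 5.4e-04) and Hmgcs1 (0.23 ± 0.04, adjusted p = 3.8e-05) were among them. For Idi1, Cyp51 and Hmgcs1 this means a smaller fall in cortex than in hippocampus, and for Lss a rise in cortex beside a fall in hippocampus. Abca1 differed by 0.40 ± 0.08 (adjusted p = 1.4e-04) and Insig1 by 0.28 ± 0.07 (adjusted p = 0.00612). Npc1 (0.21 ± 0.06), Npc2 (0.19 ± 0.06) and Insig2 (-0.23 ± 0.07) were called too. Of the 18 fits that left out 1 library, 2 ended the call of Npc1 (0.18 in both, adjusted p up to 0.0657), 7 that of Npc2 (0.16 to 0.20, adjusted p up to 0.132) and 3 that of Insig2 (-0.20, adjusted p up to 0.0551). Soat1 (0.20 ± 0.12, adjusted p = 0.301), Sc5d (0.12 ± 0.05, adjusted p = 0.174), Msmo1 (0.10 ± 0.07, adjusted p = 0.379) and Cyp46a1 (-0.05 ± 0.04, adjusted p = 0.536) did not pass. In the same contrast 13 of 16 astrocyte markers were called higher, with a median of 0.46. So were 13 of 16 oligodendrocyte markers (median 0.30) and 9 of 12 microglial ones (0.47), with none lower in these lists. Called lower, with none higher, were 9 of 12 endothelial (-0.46), 10 of 10 meningeal (-1.55) and 7 of 9 choroid plexus markers (-2.49). The part of these markers was not tested.

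In snap-frozen hippocampus more synthesis genes were called higher than lower. Of 18 synthesis genes 9 rose and 1 fell against fresh hippocampus, with a median log2 change of 0.12 against 0.01 over all genes, where 31.5% were called higher and 30.7% lower. Libraries did not overlap for 18 of the 30 members (13 higher and 5 lower), where 65.2% of all genes showed no overlap in either direction. The 9 were Dhcr7 (0.27 ± 0.05, adjusted p = 1.9e-05), Nsdhl (0.26 ± 0.06), Pmvk (0.24 ± 0.05), Acat2 (0.23 ± 0.05), Cyp51 (0.21 ± 0.04), Tm7sf2 (0.20 ± 0.08), Idi1 (0.17 ± 0.04), Lss (0.16 ± 0.05) and Msmo1 (0.12 ± 0.04). Tm7sf2 and Msmo1 were called although their groups overlapped, and each lost its call without 1 of several libraries: snap-frozen replicate 2 for Tm7sf2 (0.13, adjusted p = 0.237) and fresh replicate 2 for Msmo1 (0.07, adjusted p = 0.158). Hsd17b7 fell (-0.30 ± 0.06, adjusted p = 6.6e-05), with 20, 18.7 and 20 CPM in snap-frozen hippocampus and 24.6, 23.4 and 24.5 CPM in fresh hippocampus. The early enzyme Hmgcs1 had 282, 266 and 271 CPM in snap-frozen and 267, 272 and 273 CPM in fresh hippocampus, which overlap (0.01 ± 0.02, adjusted p = 0.708).

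Insig1 changed most in snap-frozen hippocampus, with 82.5, 80.0 and 80.2 CPM, against 51.4, 48.4 and 53.3 CPM in fresh hippocampus. The groups were far apart (0.66 ± 0.04, adjusted p = 2.0e-19), a difference of 58.4%. Srebf1 also rose (0.35 ± 0.04, adjusted p = 4.5e-10), with 67.5, 69.0 and 71.6 CPM in snap-frozen and 53.6, 57.1 and 52.4 CPM in fresh hippocampus. Srebf2 (-0.31 ± 0.03, adjusted p = 4.8e-15) and Scap (-0.26 ± 0.04, adjusted p = 9.2e-09) fell, so that the regulators did not move as a block.
In the export class 4 of 7 rose and 1 fell, where 31.5% of all genes were called higher and 30.7% lower. Npc2 had 81.4, 84.1 and 87.0 CPM in snap-frozen hippocampus, against 62.9, 66.2 and 64.8 CPM in fresh hippocampus (0.38 ± 0.04, adjusted p = 2.2e-12), and Npc1 rose by a like amount (0.33 ± 0.04, adjusted p = 4.4e-11). Stard4 (0.19 ± 0.06, adjusted p = 0.00656) lost its call without fresh replicate 2 (0.15, adjusted p = 0.0557), and Abcg1 (0.08 ± 0.04, adjusted p = 0.0496) in 6 of 9 omissions, with adjusted p up to 0.176. Cyp46a1 had 121, 126 and 115 CPM in snap-frozen hippocampus and 147, 142 and 145 CPM in fresh hippocampus. It fell without overlap (-0.26 ± 0.03, adjusted p = 5.3e-10).

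The cell markers of snap-frozen hippocampus moved as well. All 16 oligodendrocyte markers were higher, with a median of 0.65 and sums of 11018 to 11090.3 CPM in snap-frozen and 6956 to 7164 CPM in fresh hippocampus. Of 16 astrocyte markers 11 were higher and 5 lower, with nearly equal sums (7819 to 7992 CPM in snap-frozen, 7894 to 7992 CPM in fresh hippocampus). Excitatory neuron markers were lower for 7 of 8, with sums of 4512 to 4568 CPM in snap-frozen and 8431 to 8592 CPM in fresh hippocampus. All 12 endothelial markers were higher, with a median of 1.17 and sums of 509.6 to 525 CPM in snap-frozen and 232 to 236 CPM in fresh hippocampus. Meningeal markers were higher for 8 of 10 (median 1.21; 126 to 131 CPM in snap-frozen, 85.5 to 87.6 CPM in fresh hippocampus), and microglial ones lower for 8 of 12 (515 to 524 CPM in snap-frozen, 595 to 604 CPM in fresh hippocampus). Their part in the sterol results was not tested. Scaling by library totals alone shifted the median of all genes by 0.12 in this comparison and gave 22 members higher and 4 lower, of which 16 and 1 were synthesis genes.

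**Figure D4:**
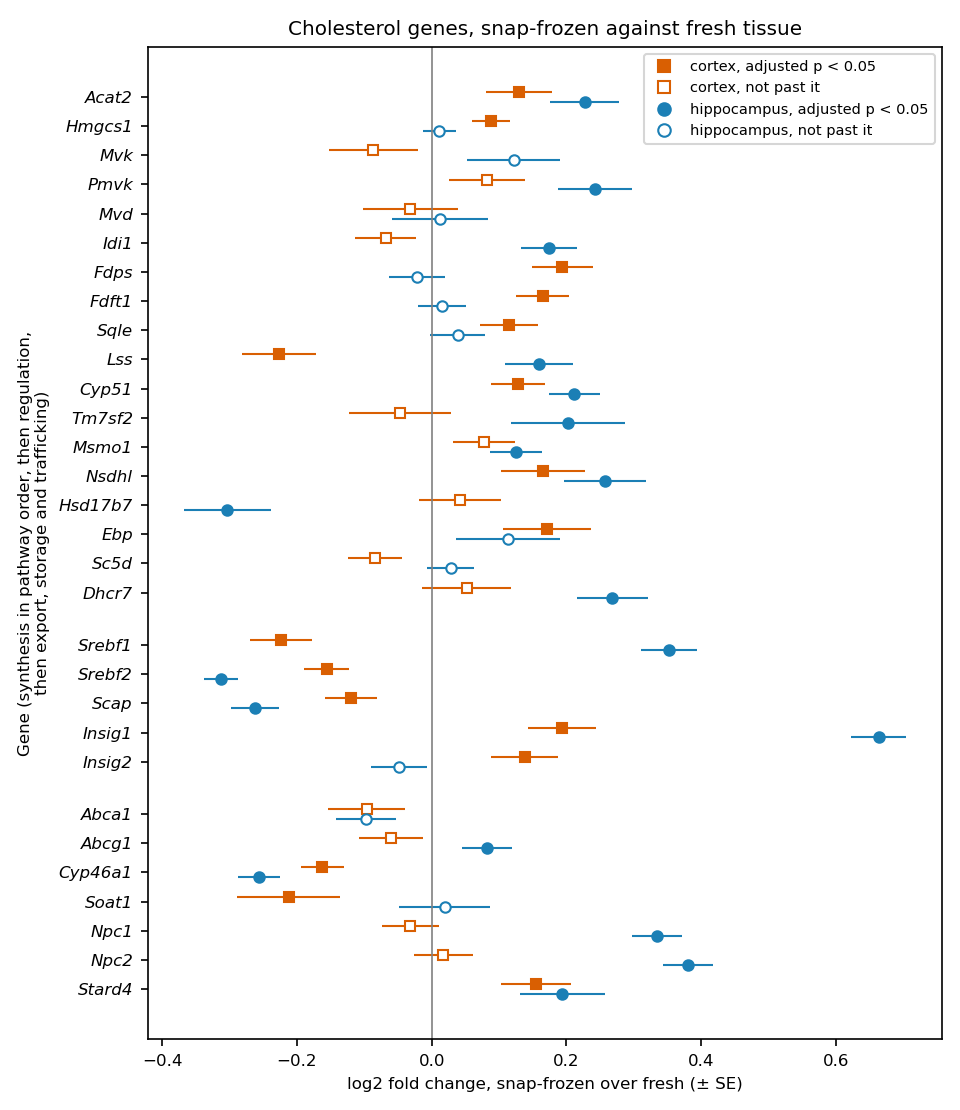
Log2 change in snap-frozen against fresh tissue for all 30 members, in cortex and in hippocampus (points, edgeR estimate; bars, SE; filled, adjusted p under 0.05; open, not past it). Insig1 in hippocampus (0.66) lies far to the right of the other members, and Srebf1 and Lss fall on opposite sides of zero in the 2 tissues.

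Changes in snap-frozen cortex were small. Against fresh cortex 8 of 18 synthesis genes were called higher and 1 lower, with a median of 0.08 against 0.00 over all genes, where 16.4% were called higher and 17.6% lower. Libraries did not overlap for 18 of the 30 members (10 higher and 8 lower), where 43.9% of all genes showed no overlap in either direction. Fdps, farnesyl diphosphate synthase, had 66.3, 68.8 and 69.9 CPM in snap-frozen cortex, against 59.8, 60.6 and 58.8 CPM in fresh cortex. Its groups did not overlap (0.19 ± 0.05, adjusted p = 0.00146), and Fdft1 rose alongside (0.16 ± 0.04, adjusted p = 0.00187). Lss fell (-0.23 ± 0.05, adjusted p = 0.00192), with 30.6, 30.6 and 28.5 CPM in snap-frozen and 34.1, 35.3 and 35.5 CPM in fresh cortex. The other 6 synthesis calls (Acat2, Hmgcs1, Sqle, Cyp51, Nsdhl and Ebp) had log2 values from 0.09 to 0.17 and each was lost in at least 1 omission of a library, with adjusted p up to 0.287. Without fresh replicate 1, 2 or 3 or snap-frozen replicate 1, the members called numbered 10, 11, 10 and 11, against 17 with all libraries. Without snap-frozen replicate 3, the library that stood apart, 13 were called, and Ebp, Insig2, Soat1 and Stard4 were not. DESeq2 called 3 members higher and 5 lower in this comparison, against 11 and 6 here, and RLE factors gave 6 and 6.

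Srebf1 (-0.22 ± 0.05, adjusted p = 4.3e-04) and Srebf2 (-0.16 ± 0.03, adjusted p = 6.2e-04) both fell in snap-frozen cortex. Insig1 rose (0.19 ± 0.05, adjusted p = 0.00371), with 73.5, 66.7 and 80.4 CPM in snap-frozen and 64.2, 62.3 and 66.4 CPM in fresh cortex. Insig2 (0.14 ± 0.05, adjusted p = 0.0316) was not called without snap-frozen replicate 3 or any fresh library, nor was Scap (-0.12 ± 0.04, adjusted p = 0.0180) without fresh replicate 3 (-0.11, adjusted p = 0.0778). Cyp46a1 had 219, 208 and 207 CPM in snap-frozen cortex, against 238, 241 and 231 CPM in fresh cortex. It fell without overlap (-0.16 ± 0.03, adjusted p = 2.5e-04). Soat1 (-0.21 ± 0.08, adjusted p = 0.0333) and Stard4 (0.16 ± 0.05, adjusted p = 0.0212) were called but lost their calls in 5 and 3 of 9 omissions. Abca1, Abcg1, Npc1 and Npc2 did not pass. Cyp46a1, Scap and Srebf2 were called lower in both snap-frozen tissues, which is 50% of the 6 cortical and 75% of the 4 hippocampal calls, against 38.3% and 21.8% over all genes. Acat2, Cyp51, Nsdhl, Insig1 and Stard4 were called higher in both (45.5% of 11 cortical and 33.3% of 15 hippocampal calls, against 23.6% and 12.2% over all genes). Of the astrocyte markers, 14 of 16 were lower in snap-frozen than in fresh cortex (7006 to 7379 CPM in snap-frozen, 8315 to 8426 CPM in fresh cortex; median -0.19). Choroid plexus markers were lower for 9 of 9 (134 to 141 CPM in snap-frozen, 321 to 414 CPM in fresh cortex; median -1.05) and meningeal ones for 7 of 10 (153 to 169.8 CPM in snap-frozen, 206 to 219 CPM in fresh cortex). The part of these markers was not tested.

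For the snap-frozen change, cortex minus hippocampus, 18 members were called, 6 higher and 12 lower, where 26.6% and 28.3% of genes were. Srebf1 differed most (-0.59 ± 0.06, adjusted p = 1.5e-10), followed by Insig1 (-0.48 ± 0.07, adjusted p = 7.6e-08), Lss (-0.40 ± 0.07, adjusted p = 7.6e-06), Npc1 (-0.38 ± 0.06, adjusted p = 2.2e-07) and Npc2 (-0.38 ± 0.06, adjusted p = 4.6e-07). Only 8 of the 18 calls held in all 18 omissions of a library (Idi1, Fdps, Lss, Hsd17b7, Srebf1, Insig1, Npc1 and Npc2). Without cortex fresh replicate 1, 11 were called, without cortex snap-frozen replicate 3, 16 were, and DESeq2 called 9. Oligodendrocyte markers were lower in this contrast for 16 of 16, with a median of -0.67. Also lower were 11 of 12 endothelial, 8 of 10 meningeal and 11 of 16 astrocyte markers, with 1 meningeal and 4 astrocyte markers higher. Called higher were 9 of 10 hippocampal region markers, 7 of 8 excitatory neuron markers (1 lower) and 9 of 12 microglial ones. The part of these markers was not tested. Cyp46a1 (0.08 ± 0.04, adjusted p = 0.120) and Hmgcs1 (0.06 ± 0.04, adjusted p = 0.158) did not pass.

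Vitrified tissue was also set directly against snap-frozen tissue, which shares its libraries with the comparisons above. In hippocampus 22 members were lower and 3 higher, where 34.0% and 33.8% of genes were, including 15 of 18 synthesis genes (median -0.32). Npc2 (-0.90 ± 0.04, adjusted p = 1.8e-24), Srebf1 (-0.87 ± 0.05, adjusted p = 4.3e-22), Soat1 (-0.87 ± 0.08, adjusted p = 7.0e-14), Insig1 (-0.85 ± 0.04, adjusted p = 5.3e-23) and Idi1 (-0.83 ± 0.05, adjusted p = 6.0e-21) had the lowest values. In cortex 15 members were lower and 4 higher, where 24.2% and 25.5% of genes were, including 9 synthesis genes lower and Lss higher (0.45 ± 0.05, adjusted p = 4.6e-08); without snap-frozen replicate 3 the counts were again 15 and 4. Cyp46a1 was higher in vitrified than in snap-frozen tissue both in hippocampus (0.46 ± 0.03, adjusted p = 3.1e-18) and in cortex (0.35 ± 0.03, adjusted p = 2.9e-10). All 10 hippocampal region markers were higher in vitrified than in snap-frozen hippocampus (median 0.84), and 11 of 12 endothelial markers were lower (median -0.44). In hippocampus 15 of 16 astrocyte markers (median -1.49; 2846 to 2879.7 CPM in vitrified, 7819 to 7992 CPM in snap-frozen) and 16 of 16 oligodendrocyte markers (median -0.97; 6766 to 6786 CPM in vitrified, 11018 to 11090.3 CPM in snap-frozen) were lower, and 7 of 8 excitatory neuron markers higher. In cortex 15 of 16 astrocyte markers were lower (median -0.63; 4574 to 4675 CPM in vitrified, 7006 to 7379 CPM in snap-frozen), as were 8 of 9 choroid plexus ones (median -1.92). The part of these markers was not tested.

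Most of these changes were small. With an absolute log2 change above 0.5 also required, 6 members were called in vitrified against fresh hippocampus, all lower (Idi1, Cyp51, Srebf1, Abca1, Soat1 and Npc2), where 7.34% of all genes were. Vitrified against fresh cortex left Soat1 alone, where 4.24% of genes were called lower. Snap-frozen against fresh hippocampus left Insig1 alone, where 14.5% of genes were called higher, and snap-frozen against fresh cortex left no member, where 3.34% of genes were called in either direction. Between vitrified and snap-frozen tissue 9 members in hippocampus passed, all lower, where 17.9% of genes did, and none in cortex, where 11.4% did in either direction.

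Neighbouring pathways were read from lists that hold none of the 30 members. The fatty acid synthesis list, the other arm under SREBP control, fell in vitrified hippocampus. There 13 of 13 genes were lower, where 25.3% of all genes were, with a median log2 change of -0.54. Desaturase genes were among the lowest, with Fads2 at -1.19 ± 0.03 (adjusted p = 3.4e-33), Fads1 at -0.87 ± 0.03, Scd2 at -0.86 ± 0.02 (adjusted p = 6.1e-38) and Scd1 at -0.72 ± 0.03. In vitrified cortex 12 of 13 were lower (median -0.35), where 17.3% of all genes were. They included Fads2 (-0.73 ± 0.04, adjusted p = 2.1e-15) and Fads1 (-0.63 ± 0.03). Snap-frozen hippocampus had 8 higher and 4 lower, where 31.5% and 30.7% of all genes were. Scd1 stood at 1.05 ± 0.02 there (adjusted p = 6.1e-37) and Elovl5, an elongase, at 0.59 ± 0.04. Snap-frozen cortex had 1 higher and 6 lower, where 16.4% and 17.6% of all genes were, with Scd1 at -0.23 ± 0.03 (adjusted p = 1.6e-06). Astrocyte markers fell in the same vitrified libraries (median -1.44 in hippocampus and -0.85 in cortex), and oligodendrocyte markers rose in snap-frozen hippocampus (0.65). Their part was not tested.

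Genes that process or degrade the SREBP machinery were called in both directions. In vitrified hippocampus 2 of 10 were higher and 3 lower, and in vitrified cortex 2 and 2, near the shares over all genes (23.8% and 25.3% in hippocampus, 23.2% and 17.3% in cortex). In snap-frozen hippocampus 4 of 10 were lower and none higher (30.7% and 31.5% over all genes). The smallest p there was that of Fbxw7, a ubiquitin ligase component that marks nuclear SREBP (-0.53 ± 0.03, adjusted p = 5.6e-22). In snap-frozen cortex 2 were higher and 1 lower (16.4% and 17.6% over all genes). The non-sterol isoprenoid branch had 1 higher and 3 lower of 10 in vitrified hippocampus and 2 and 2 in vitrified cortex, again near those shares. Nus1, a subunit of the dolichol-making transferase, was lower in vitrified hippocampus (-0.18 ± 0.04), vitrified cortex (-0.21 ± 0.04), snap-frozen hippocampus (-0.25 ± 0.03) and snap-frozen cortex (-0.24 ± 0.04). Of that branch 3 were higher and 2 lower in snap-frozen hippocampus (31.5% and 30.7% over all genes), with Fnta, a prenyltransferase subunit, at 0.49 ± 0.04. In snap-frozen cortex 1 was higher and 1 lower (16.4% and 17.6% over all genes).

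Of 26 further genes of liver X receptor signalling and sterol transport, 3 were higher and 9 lower in vitrified hippocampus, and 5 and 9 in vitrified cortex, where over all genes the shares were 23.8% and 25.3% in hippocampus and 23.2% and 17.3% in cortex. Lcat, the enzyme that esterifies cholesterol on lipoproteins, had the largest change in both, at -1.41 ± 0.06 in hippocampus (adjusted p = 2.2e-23) and -0.89 ± 0.07 in cortex (adjusted p = 1.3e-11). Gramd1a, a sterol carrier at membrane contacts, rose in both (0.28 ± 0.03 in hippocampus and 0.25 ± 0.04 in cortex). In snap-frozen hippocampus 10 were higher and 10 lower (31.5% and 30.7% over all genes), with Cyp27a1, a sterol hydroxylase, at 1.85 ± 0.14 (adjusted p = 2.4e-16). In snap-frozen cortex none was higher and 2 were lower (16.4% and 17.6% over all genes), Gramd1b (-0.19 ± 0.03) and Gramd1a (-0.11 ± 0.04).

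**Figure D5:**
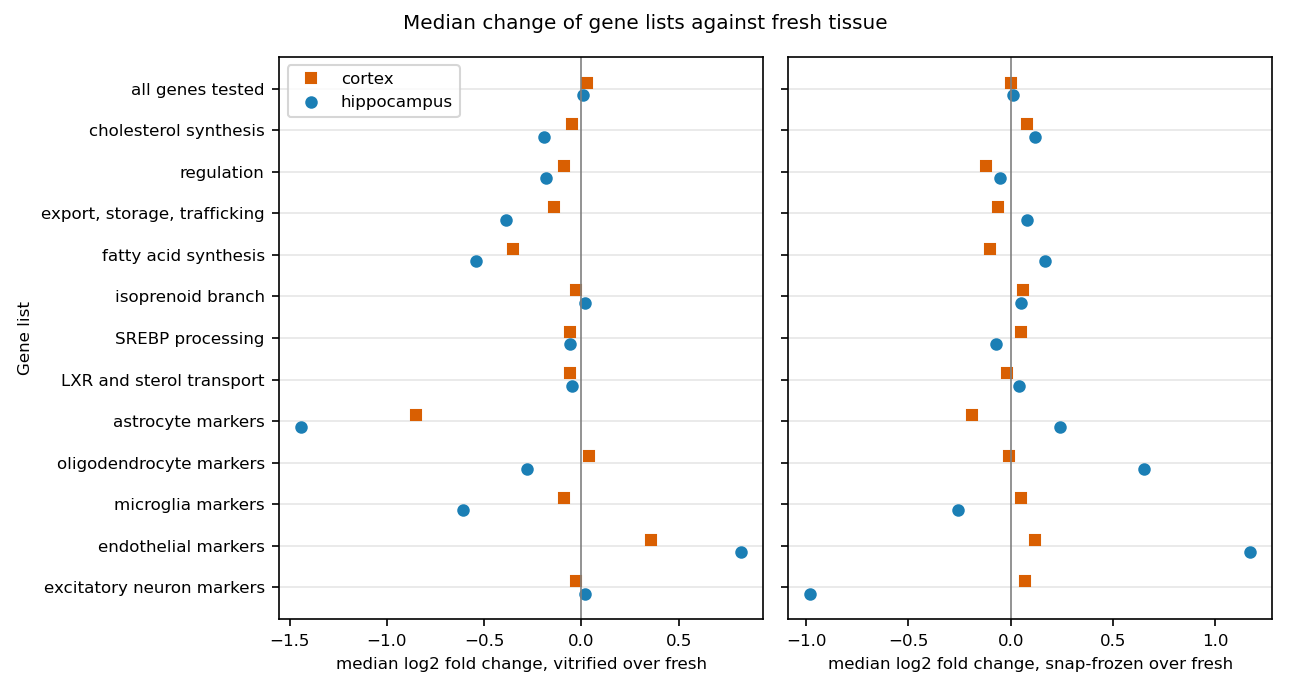
Median log2 change of each gene list in vitrified (left panel) and snap-frozen (right panel) against fresh tissue, in cortex and in hippocampus. In vitrified hippocampus the synthesis list has a median of -0.19, the fatty acid list -0.54 and the astrocyte markers -1.44.

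Some levels carry a limit from the gene's position. Fdps shares 26.7% of its exon bases with Gm43738 on the same strand, and Scap (13.2%), Hmgcs1 (12.1%) and Idi1 (9.22%) overlap genes on the opposite strand that were not analysed here. Fdft1 shares 18.3% of its exon bases with Ctsb on the opposite strand and Tm7sf2 shares 12.1% with Vps51 on the same strand. Cyp51 overlaps Akap9, Npc1 overlaps Rmc1 and Srebf1 overlaps Rai1, by under 5% of their exon bases each. The libraries were stranded per the labels, but whether the counting used strand is not given in the sources used here. Reads of the opposite-strand pairs may therefore not have been kept apart. For the same-strand pairs, Fdps with Gm43738 and Tm7sf2 with Vps51, strand cannot separate reads of the shared bases.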

How the data were processed

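Stranded poly(A) libraries of mouse hippocampus and cerebral cortex were sequenced on the DNBSEQ platform, per the labels' protocols. HISAT2 2.0.4 and the GRCm38.p6 build are named in the submitters' processing notes. Neither the counting program nor its strand setting or annotation is given in the sources used here. The authors deposited 1 table of expected counts per gene for each tissue, in which 4.39% to 5.16% of a library's values were not whole numbers. These were rounded to whole numbers.

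Genes were filtered with filterByExpr by group, scaled by TMM and tested with edgeR 4.0.16 (quasi-likelihood F test, R 4.3.3). P-values were adjusted by Benjamini-Hochberg over all genes tested, 14528 in hippocampus, 14470 in cortex and 14827 in a joint fit of both tissues, which gave the tissue difference and the differences of changes between tissues. The 3 groups of a tissue share 1 estimate of spread, with a common biological coefficient of variation of 1.69% in hippocampus, 2.71% in cortex and 2.27% in the joint fit. An SE is the absolute log2 change divided by the square root of F. CPM are TMM-scaled within the fit of each tissue. Levels per length instead take the TMM-scaled CPM of the joint fit, divided by the union of exons in GENCODE M21. Alternatives were limma-voom 3.58.1, DESeq2 1.42.0, other scalings, filters, fits and call rules, a replicate block, and each library left out.

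The 30 members and the lists of related genes and cell markers were chosen with earlier results of these data known. All members are named. From each related list up to 4 called genes with the smallest p are named per comparison, and other genes are marked as chosen after their values were seen. Promoters came from the RefSeq table. The protein table was not used here.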

Additional observations from a re-analysis of the deposited data

Results flagged for a closer look

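The difference between the tissues was itself tested by an interaction term in the joint fit (edgeR quasi-likelihood test, Benjamini-Hochberg over all genes). For vitrified against fresh tissue, cortex minus hippocampus, 9 members passed (8 higher and 1 lower, where 7.01% and 5.89% of all genes were called). On the log2 scale the synthesis genes differed by 0.23 (Hmgcs1), 0.31 (Idi1), 0.38 (Lss) and 0.29 (Cyp51). The regulators Insig1 and Insig2 differed by 0.28 and -0.23. Abca1 differed by 0.40, Npc1 by 0.21 and Npc2 by 0.19.

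For snap-frozen against fresh tissue, cortex minus hippocampus, 18 members passed (6 higher and 12 lower), a share near that of all genes, of which 26.6% were called higher and 28.3% lower. The change was lower in cortex than in hippocampus for the synthesis genes Lss (-0.40), Idi1 (-0.26), Tm7sf2 (-0.26), Dhcr7 (-0.23), Mvk (-0.22) and Sc5d (-0.12). It was higher in cortex than in hippocampus for Hsd17b7 (0.33), Fdps (0.20) and Fdft1 (0.14). Among regulators the differences were -0.59 for Srebf1, -0.48 for Insig1, 0.17 for Insig2, 0.14 for Srebf2 and 0.13 for Scap. In the export class they were -0.38 for Npc1, -0.38 for Npc2, -0.24 for Soat1 and -0.15 for Abcg1.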

How the results depend on the processing

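The 30 members and the comparisons each alternative covers gave 5310 values, leaving aside the stricter call rule below. Of these, 5027 stayed on their side of the threshold, where a change of sign in a value called in neither fit was not counted. A call was lost by 222 values and gained by 60. With a call in at least 1 of the fits, 1 value reversed. Fdps in snap-frozen against fresh hippocampus, -0.02 with TMM, was 0.10 and past the threshold with library totals. DESeq2 called 8 members in snap-frozen against fresh cortex (17 with edgeR) and 9 in the snap-frozen difference between tissues (18 with edgeR). With an absolute log2 change above 0.5 also required, 6 members were called in vitrified and 1 in snap-frozen against fresh hippocampus, 1 and 0 in cortex, and 9 and 0 in vitrified against snap-frozen hippocampus and cortex. Library totals moved the median of all genes by -0.11 in the snap-frozen difference between tissues (1 higher and 17 lower, against 6 and 12). The cause was not tested.

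Leaving out 1 library gave 19 to 21 called members for vitrified and 16 to 19 for snap-frozen against fresh hippocampus, 24 to 26 for vitrified against snap-frozen hippocampus, 14 to 16 for vitrified and 10 to 17 for snap-frozen against fresh cortex, and 17 to 20 for vitrified against snap-frozen cortex. The ranges were 6 to 10 for the vitrified and 11 to 18 for the snap-frozen difference between tissues, and 16 to 18 for fresh hippocampus against fresh cortex. Where an omission leaves 2 libraries in a group, they are assumed to vary like the others.

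Sample numbers were tested as a replicate block. Deviations of same-numbered libraries correlated between -0.042 and 0.041 in hippocampus and between -0.197 and 0.153 in cortex, with 1 of 18 pairs above 0.1. A differently numbered cortex pair, vitrified replicate 1 and snap-frozen replicate 3, reached 0.296. With 3 libraries per group, this cannot show whether same-numbered samples share an animal, which the labels do not give. With the block, 263 of 270 member results stayed on their side of the threshold, 4 lost and 3 gained a call.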
